A study of Mus musculus with 12 samples.

Results

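The lysyl oxidases *Lox*, *Loxl1*, *Loxl2*, *Loxl3* and *Loxl4*, the lysyl hydroxylases *Plod1* and *Plod2* and the collagen prolyl 4-hydroxylase alpha subunits *P4ha1*, *P4ha2* and *P4ha3* were examined by bulk RNAseq during reprogramming of murine cardiac fibroblasts into induced endothelial cells (iECs). They were chosen by name, as the rows of the count table whose Ensembl identifier carries these symbols, and made up 10 of 35727 genes. All 10 members passed the filter on low counts, as did 15506 genes in all. Fibroblasts came from pooled hearts of neonatal mice by magnetic selection of THY1-positive cells, with a step that removes PECAM1-positive cells, and were kept in EGM2, an endothelial growth medium. Cells received retrovirus carrying *Sox17* and *Erg*, transcription factors of endothelial cells (labelled SE and iEC), or the control retrovirus (labelled PMX, cell type fibroblast). RNA was taken at Day 3, at Day 7 and after 4 weeks, and each arm had 2 libraries per time, which made 6 groups and 12 libraries. Both arms were infected primary cultures grown in the same medium, and the labels do not say whether 2 libraries of a group came from separate fibroblast isolations, so p-values measure the spread between these libraries. The bulk RNA of a *Sox17*-*Erg* culture pools the RNA of every cell in it, so fewer cells expressing a gene and less RNA per cell cannot be told apart.

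Fibrillar collagens are modified on both prolines and lysines in the endoplasmic reticulum before secretion. Prolyl 4-hydroxylases, tetramers of alpha subunits with the beta subunit *P4hb*, hydroxylate prolines that hold the triple helix together, and lysyl hydroxylases hydroxylate lysines that later carry sugars and cross-links. Outside the cell, the copper enzymes of the lysyl oxidase family oxidize lysines of collagen and elastin so that the fibers become covalently cross-linked. In the heart these enzymes are known above all as fibroblast products that stiffen the matrix, and *Loxl2* is also made by endothelial cells, where it cross-links collagen IV of the basement membrane. *P4ha1*, *P4ha2*, *Plod2*, *Lox* and *Loxl2* are textbook targets of hypoxia inducible factors.

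Promoter sequences were held for 5 of the 10 members (*Loxl4*, *Plod1*, *P4ha1*, *P4ha2* and *P4ha3*) in the RefSeq table of build GRCm38.p6. The 3 alpha subunit genes are shown because their levels moved apart in the comparisons that follow. Each line gives the 250 bases before the transcription start of the RefSeq table, 5′ to 3′, and capitals mark the core words of the hypoxia response element, ACGTG and GCGTG, on either strand.
P4ha1 (chr10:59323046-59323295, plus strand): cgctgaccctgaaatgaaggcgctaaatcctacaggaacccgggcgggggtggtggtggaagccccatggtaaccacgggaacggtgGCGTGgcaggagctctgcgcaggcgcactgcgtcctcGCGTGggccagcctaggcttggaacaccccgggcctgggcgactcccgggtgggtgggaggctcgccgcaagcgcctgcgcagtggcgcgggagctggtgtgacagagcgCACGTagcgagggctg
P4ha2 (chr11:54100674-54100923, plus strand): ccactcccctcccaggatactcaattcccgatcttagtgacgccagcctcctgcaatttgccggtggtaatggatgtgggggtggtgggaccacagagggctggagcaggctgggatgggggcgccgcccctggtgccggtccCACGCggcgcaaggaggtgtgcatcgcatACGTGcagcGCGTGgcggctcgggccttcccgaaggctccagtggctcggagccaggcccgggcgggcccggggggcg
P4ha3 (chr7:100285270-100285519, plus strand): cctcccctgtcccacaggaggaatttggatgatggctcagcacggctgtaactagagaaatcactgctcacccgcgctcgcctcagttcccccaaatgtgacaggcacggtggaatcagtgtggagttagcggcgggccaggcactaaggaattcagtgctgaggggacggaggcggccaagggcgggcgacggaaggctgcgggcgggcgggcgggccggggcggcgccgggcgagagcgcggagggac
The *P4ha1* and *P4ha2* windows each held 1 ACGTG and 2 GCGTG words, and the *P4ha3* window held neither. Among 32851 promoters of the table, 16.6% held ACGTG and 28.2% held GCGTG in the same 250 bases. The windows of *Loxl4* and *Plod1* held 1 GCGTG word each and no ACGTG. None of the 5 windows held the SOX core word ACAAT (27.7% of all promoters), or the ETS words CCGGAAG (6.91%) and AGGAAG (29.5%), on either strand. The hypoxia words share CGTG and the ETS words share GGAAG, and the letter before it keeps a stretch on 1 strand from matching both. The gene bodies lie on build GRCm38 at chr10:59323296-59373304 (*P4ha1*), chr11:54100095-54131665 (*P4ha2*), chr7:100285520-100319699 (*P4ha3*), chr4:147909753-147936767 (*Plod1*), chr9:92542223-92608428 (*Plod2*), chr9:58287738-58313186 (*Loxl1*), chr14:69609068-69695834 (*Loxl2*), chr6:83034173-83052562 (*Loxl3*) and chr19:42593982-42612813 (*Loxl4*). The *P4ha2* window lies inside its gene body by this annotation, since GENCODE also holds a transcript that starts further upstream, and overlaps no exon of the gene. The values that follow count reads over all exons of a gene.

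Library totals ran from 19011635 to 41240449 counts. The transgenes followed the labels. *Sox17* reached 0.416 CPM (counts scaled to a common library size by TMM factors) at most in the 6 control libraries and 432 to 1036 CPM in the 6 *Sox17*-*Erg* libraries, and *Erg* reached 2.27 and 17.1 to 65.2 CPM. *Cdh5*, the endothelial cadherin, stood at 148 to 496 CPM in the *Sox17*-*Erg* libraries, and in the control arm at 14.3 and 8.08 CPM in replicate 2 of Day 3 and Day 7 against 0.910 and 0.230 CPM in replicate 1. At 4 weeks, 6 of 9 tested endothelial markers were higher and 1 lower in *Sox17*-*Erg*, but their summed level overlapped between the arms (1098 to 1282 CPM against 987 to 1522 CPM in control), as it did at Day 7 (964 to 1064 CPM against 651 to 967 CPM) and not at Day 3 (662 to 668 CPM against 397 to 540 CPM). Of 10 fibroblast markers, 5 were lower and 2 higher, and their summed level was 4394 to 4930 CPM against 9235 to 10755 CPM in control. Smooth muscle and pericyte markers were higher for 6 and lower for 3 of 10, summed to 3248 to 3547 CPM against 736 to 1607 CPM. Cardiomyocyte markers (8 of 10) and mesothelial markers (7 of 8) were lower, summed to 688 to 689 CPM against 1092 to 1366 CPM and to 169 to 268 CPM against 932 to 1478 CPM. Of all tested genes, 11.9% were called higher and 11% lower at 4 weeks. Each listed marker of these cell types had counts in at least 1 library of every group. The magnetic selection at isolation would remove THY1-negative cells such as cardiomyocytes and macrophages, and the cell make-up of the cultures at the time of RNA collection was not measured here. The part of these markers in the members' results was not tested.

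**Figure D1:**
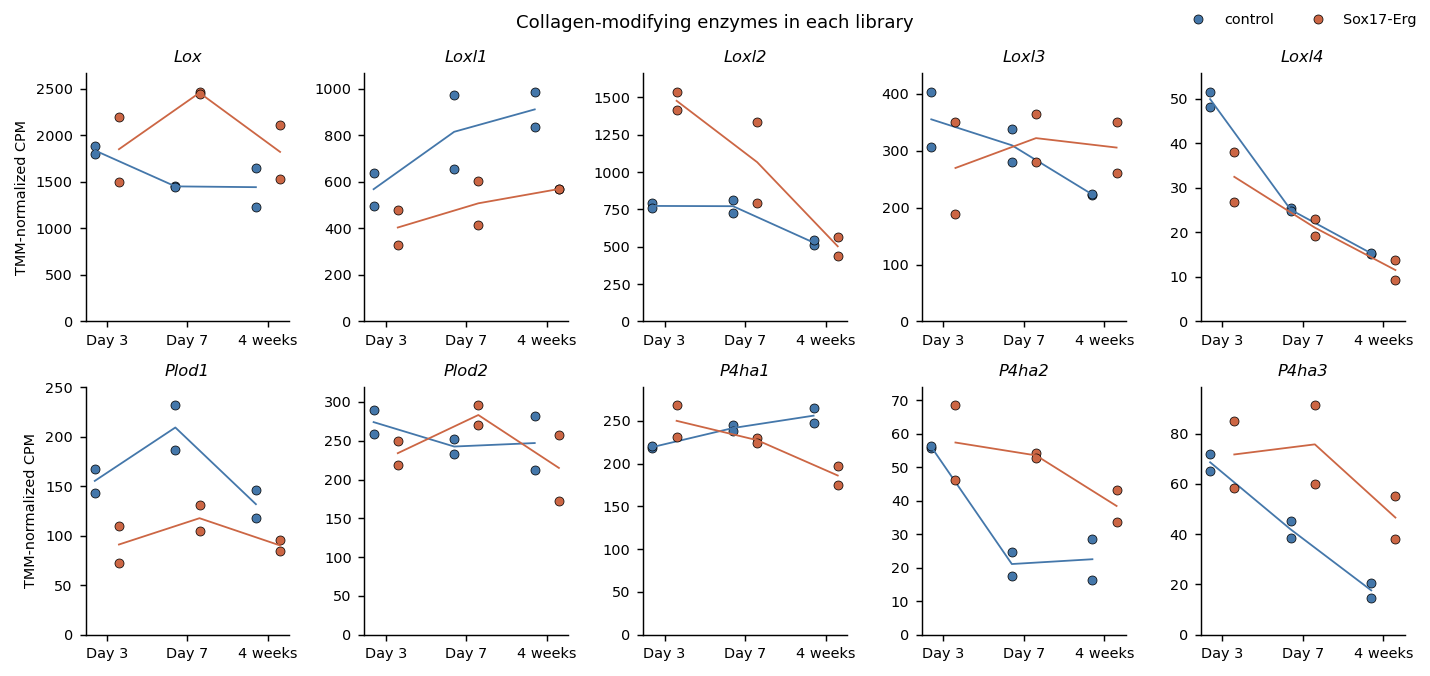
TMM-normalized CPM of the 10 members (vertical axes from 0, one panel per gene) at Day 3, Day 7 and 4 weeks in control and *Sox17*-*Erg* cultures. Each point is 1 library and lines join the means of 2 libraries. *Loxl1*, *Loxl4* and *Plod1* points of *Sox17*-*Erg* lie below the control points at each time point, and *P4ha2* and *P4ha3* points lie above them at Day 7 and 4 weeks.

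Few of the enzymes passed the main test, without pairing, at any time point, and *Plod1* was the 1 member that did so at more than 1 time point. At Day 3, *Loxl2* was higher and *Plod1* lower in *Sox17*-*Erg* than in control, 2 of 10 members, when 12.3% of all tested genes (7.19% higher, 5.13% lower) were called at an adjusted p under 0.05 in edgeR's quasi-likelihood test. At Day 7, *P4ha2* was higher and *Plod1* lower, again 2 of 10, against 17.4% of all genes (9.48% higher, 7.93% lower). At 4 weeks, *P4ha3* was higher and *P4ha1* lower, 2 of 10, against 22.9% of all genes (11.9% higher, 11% lower). These shares lie near the background, and the median log2 fold change of the members was -0.11, 0.14 and -0.14 in the order of time, against 0.01, 0.01 and -0.01 over all genes. Same-numbered libraries of the arms deviated together only weakly within a time point (correlations of 0.186, 0.301 and 0.171 in the order of time). Libraries of 1 arm at different times reached 0.219, so a pairing particular to a time point was not shown. With the replicate number as a block within time points, 4, 5 and 5 members were called at Day 3, Day 7 and 4 weeks, when 23.2%, 27.1% and 31% of all genes were called. That fit called *Loxl1* and *Plod1* at each time, and *P4ha2* and *P4ha3* at both Day 7 and 4 weeks.

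**Figure D2:**
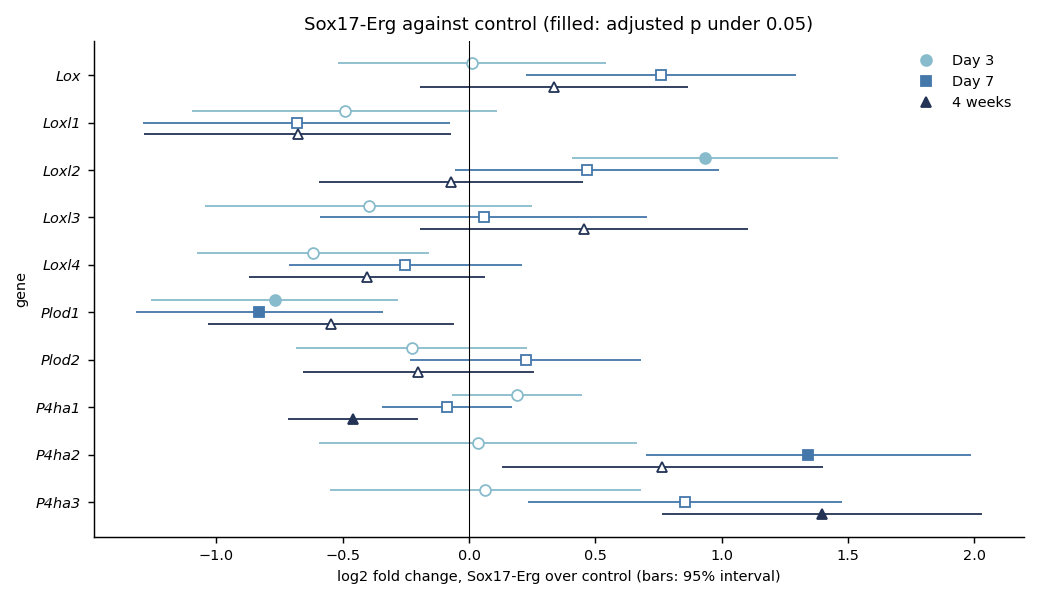
Log2 fold change of *Sox17*-*Erg* over control (horizontal axis) for the 10 members at Day 3 (circles), Day 7 (squares) and 4 weeks (triangles) with 95% intervals. Filled symbols passed an adjusted p under 0.05, namely *Loxl2* and *Plod1* at Day 3, *P4ha2* and *Plod1* at Day 7, and *P4ha3* and *P4ha1* at 4 weeks.

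At Day 3, the 2 libraries of each arm did not overlap for 6 of 10 members, 2 higher and 4 lower in *Sox17*-*Erg*, against 64% of all genes (34.1% higher, 29.9% lower). At Day 7 this held for 8 members, 4 in either direction, against 57.9% (29% higher, 28.8% lower). At 4 weeks it held for 7 members, 3 higher and 4 lower, against 62.8% (30.3% higher, 32.5% lower). Across all 3 time points, *Loxl1*, *Loxl4* and *Plod1* were the members whose *Sox17*-*Erg* libraries all lay under the control libraries of the same time, 3 of 10 against 13.6% of all genes in that direction. No member lay above control at all 3 time points, as 14.6% of all genes did. In an exact permutation of labels within time points, two-sided, each of the 3 genes was at p = 0.0093 (adjusted p = 0.033), the smallest value that these permutations can give. Separation at every time point fixes the p at this value, so it restates the separation and is no further support. These permutations take no account of the replicate number. When the arms were instead swapped within same-numbered pairs, in 64 arrangements, the 3 genes were again at the smallest two-sided p, an exact 0.031, as did 40.6% of all genes, but the adjusted p was 0.077 and no gene of the whole table passed. In the free permutation, such a p was reached by 13.6% of all genes that were lower and 14.6% that were higher. The mean log2 difference over time points was -0.72 for *Plod1*, -0.62 for *Loxl1* and -0.44 for *Loxl4*. *P4ha3* (0.75, p = 0.028, adjusted p = 0.068) and *P4ha2* (0.73, p = 0.046, adjusted p = 0.098) did not pass in this exact permutation test. Summed cardiomyocyte and mesothelial markers also lay under control without overlap at each time, whereas fibroblast markers overlapped at Day 3 (7546 to 12045 CPM against 10971 to 13081 CPM) and Day 7 (9768 to 10937 CPM against 10264 to 14401 CPM), and the part of these cells was not tested.

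*Lox*, the founding lysyl oxidase, was the family's most abundant member per kb of exon in every library. Its level was 1881 and 1794 CPM in control and 1503 and 2198 CPM in *Sox17*-*Erg* at Day 3, where the arms overlapped. At Day 7 it was 1460 and 1442 CPM in control and 2469 and 2444 CPM in *Sox17*-*Erg*, with both *Sox17*-*Erg* libraries above control. At 4 weeks the levels of 1654 and 1232 CPM in control and 2113 and 1530 CPM in *Sox17*-*Erg* overlapped again. The Day 7 difference was 0.76 ± 0.24 on the log2 scale (standard error, 1.69-fold) with an adjusted p of 0.056 in edgeR. It passed with the replicate block within time points (0.018), and without pairing in DESeq2 (0.0072) and in edgeR without a filter on low counts (0.014). It did not pass with a replicate block over all libraries (0.065), with DESeq2 size factors in edgeR or in the fit of the Day 7 libraries alone. The other 2 time points gave log2 fold changes of 0.01 ± 0.24 and 0.34 ± 0.24, neither called.

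*Loxl2*, which also acts on basement membrane collagen, was the lysyl oxidase called at Day 3. Control libraries held 791 and 756 CPM at Day 3 and *Sox17*-*Erg* libraries 1416 and 1539 CPM, without overlap. The log2 fold change was 0.93 ± 0.23 (1.91-fold, adjusted p = 0.034 in edgeR). At Day 7 control libraries held 814 and 729 CPM and *Sox17*-*Erg* libraries 1337 and 795 CPM, so that *Sox17*-*Erg* replicate 2 lay within the control range. The Day 7 log2 fold change was 0.47 ± 0.23, and ran from 0.045 to 0.75 in fits that left out 1 library. At 4 weeks the levels were 509 and 548 CPM in control against 566 and 440 CPM, with a log2 fold change of -0.07 ± 0.23. The Day 3 call was lost, at adjusted p of 0.052 to 0.194 in edgeR, without any 1 of the 4 Day 3 libraries, control Day 7 replicate 1 or control 4 weeks replicate 2, while the log2 fold change stayed between 0.87 and 0.97. Of the 31-base words of *Loxl2* exons, 46.2% are shared with other genes, mainly the predicted gene *Gm21451*, and reads of the pair could be split by the counting. *Gm21451* itself held 0.925 to 23.0 CPM, at Day 3 0.925 to 1.56 CPM in control and 4.15 to 4.83 CPM in *Sox17*-*Erg*. Summed levels of 10 cell cycle genes also stood higher in *Sox17*-*Erg* at Day 3 (1165 to 1403 CPM against 436 to 546 CPM) and at 4 weeks (119 to 283 CPM against 66.4 to 70.1 CPM), and overlapped at Day 7 (379 to 937 CPM against 192 to 558 CPM). Of these genes 1 was called higher at Day 3, none at Day 7 and 5 at 4 weeks in edgeR, beside 7.19%, 9.48% and 11.9% of all genes. At Day 7, 1 had an unadjusted p under 0.05, and all 10 had log2 fold changes above 0 at each time. Their part in the members' results was not tested.

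*Loxl1*, which is known for its part in elastic fiber renewal, was not called at any time point in edgeR. Control libraries held 498 and 639 CPM at Day 3, 656 and 975 CPM at Day 7 and 988 and 835 CPM at 4 weeks. *Sox17*-*Erg* libraries held 330 and 478, 413 and 603, and 571 and 568 CPM at the same times. Both *Sox17*-*Erg* libraries were under both control libraries each time, and at Day 3 and Day 7 replicate 2 was the higher library of either arm. The log2 fold changes were -0.49 ± 0.27, -0.68 ± 0.27 and -0.68 ± 0.27, with adjusted p of 0.25, 0.12 and 0.10 in edgeR. With the replicate block they became 0.025, 0.0071 and 0.0059, and no other alternative called it at Day 3. The Day 7 difference also passed without pairing in DESeq2 (adjusted p = 0.046) and in edgeR without a filter on low counts (0.027), and the 4-week difference in the latter (0.020). A replicate block over all libraries called neither (0.065 and 0.053).

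*Loxl4*, the least abundant lysyl oxidase per kb of exon, declined in both arms. Control libraries held 48.3 and 51.7 CPM at Day 3, 25.5 and 24.7 CPM at Day 7 and 15.1 and 15.5 CPM at 4 weeks. *Sox17*-*Erg* libraries held 26.9 and 38.1, 19.2 and 23.0, and 13.7 and 9.37 CPM. The arms did not overlap at any time, but the log2 fold changes of -0.62 ± 0.20, -0.25 ± 0.20 and -0.40 ± 0.21 had adjusted p of 0.077, 0.43 and 0.20 in edgeR. At Day 3 the difference passed with the replicate block within time points (0.036), and without pairing in DESeq2 (0.040) and in edgeR without a filter on low counts (0.022). It did not pass with a replicate block over all libraries (0.082). *Loxl3* ranged from 189 to 404 CPM over the 12 libraries, with log2 fold changes of -0.40, 0.06 and 0.45 that were not called. Its exons share 535 bases with *Htra2* on the opposite strand (19.2 to 39.1 CPM), and the sources used here do not give the strand setting of the counting.

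Of the lysyl hydroxylases, *Plod1*, the enzyme of helical lysines, was lower in *Sox17*-*Erg*, whereas *Plod2*, the telopeptide lysyl hydroxylase, was not called. *Plod1* stood at 143 and 167 CPM in control and 72.7 and 109 CPM in *Sox17*-*Erg* at Day 3. The levels were 186 and 232 CPM against 105 and 131 CPM at Day 7, and 117 and 146 CPM against 85.0 and 95.3 CPM at 4 weeks. Control was higher without overlap each time. The log2 fold changes were -0.77 ± 0.22 (1.70-fold lower, adjusted p = 0.049), -0.83 ± 0.22 (1.78-fold lower, adjusted p = 0.030) and -0.55 ± 0.22 (1.46-fold lower, adjusted p = 0.10) in edgeR, and the 4-week adjusted p was 0.011 with the replicate block and 0.028 without a filter on low counts. The Day 3 call was lost in 9 of 12 fits that left out 1 library (adjusted p 0.051 to 0.282) and was kept without control Day 7 replicate 1, *Sox17*-*Erg* Day 3 replicate 2 or *Sox17*-*Erg* Day 7 replicate 2. The Day 7 call was lost without control Day 7 replicate 2 or *Sox17*-*Erg* Day 7 replicate 1 (adjusted p 0.157 and 0.210), with log2 fold changes of -0.66 and -0.68. Fits of the 4 libraries of a time alone lost both calls at log2 fold changes of -0.80 and -0.85 (adjusted p = 0.059 at Day 3 and 0.067 at Day 7).

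*Plod1* was measured beside a shift of macrophage markers at Day 7. The 10 markers summed to 915 to 1316 CPM in control and 282 to 455 CPM in *Sox17*-*Erg* at Day 7, but overlapped at Day 3 (295 to 454 and 307 to 333 CPM) and 4 weeks (47.8 to 432 and 69.7 to 347 CPM), and none of the 10 was called at any time in edgeR. *Plod2* ranged from 172 to 296 CPM over the 12 libraries. Its log2 fold changes of -0.23 ± 0.20, 0.22 ± 0.20 and -0.20 ± 0.20 had 95% intervals of -0.69 to 0.23, -0.23 to 0.68 and -0.66 to 0.26.

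Among the prolyl 4-hydroxylases, the 3 alpha subunits did not move together. *P4ha3* was higher in *Sox17*-*Erg* at 4 weeks, *P4ha2* at Day 7, and *P4ha1*, the major alpha subunit, was lower at 4 weeks. *P4ha3* held 72.0 and 65.3 CPM in control and 58.6 and 84.9 CPM in *Sox17*-*Erg* at Day 3, where the arms overlapped. It held 45.4 and 38.4 CPM against 91.4 and 60.1 CPM at Day 7, and 20.7 and 14.6 CPM against 55.1 and 38.1 CPM at 4 weeks, with *Sox17*-*Erg* above control both times. The log2 fold changes were 0.06 ± 0.27, 0.85 ± 0.28 (adjusted p = 0.062, but 0.013 with the replicate block, 0.022 in DESeq2 and 0.0010 without a filter on low counts) and 1.40 ± 0.28 (2.63-fold, adjusted p = 0.0073) in edgeR. The 4-week call was lost without control 4 weeks replicate 2 (1.18, adjusted p = 0.051) or *Sox17*-*Erg* 4 weeks replicate 1 (1.10, adjusted p = 0.059).

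*P4ha2* was called higher at Day 7 and not at 4 weeks. Its levels at Day 3 were 55.9 and 56.3 CPM in control and 46.2 and 68.6 CPM in *Sox17*-*Erg*. Control fell to 24.7 and 17.5 CPM at Day 7 and 28.6 and 16.5 CPM at 4 weeks, whereas *Sox17*-*Erg* stood at 54.2 and 52.9 CPM and then at 43.3 and 33.6 CPM. The arms overlapped at Day 3 and at neither later time. The log2 fold change was 0.03 ± 0.28 at Day 3, 1.34 ± 0.29 at Day 7 (2.54-fold, adjusted p = 0.013) and 0.77 ± 0.28 at 4 weeks (adjusted p = 0.083, but 0.016 with the replicate block, 0.041 in DESeq2 and 0.0045 without a filter on low counts) in edgeR. A replicate block over all libraries did not call the 4-week difference (adjusted p = 0.074). The Day 7 call was lost without control Day 7 replicate 2 (1.12, adjusted p = 0.091) or *Sox17*-*Erg* Day 7 replicate 1 (1.32, adjusted p = 0.071).

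Smooth muscle and pericyte markers, and TGFβ response genes, were measured beside these subunits. The summed smooth muscle and pericyte level was 3445 to 3551 CPM in *Sox17*-*Erg* against 2454 to 2604 CPM at Day 3, when *P4ha2* and *P4ha3* overlapped, and 1829 to 3557 CPM against 476 to 852 CPM at Day 7. The summed TGFβ response level was 27783 to 37872 CPM against 26488 to 29982 CPM at Day 3, 26195 to 29689 CPM against 13108 to 13389 CPM at Day 7 and 14746 to 15600 CPM against 7244 to 10143 CPM at 4 weeks. Both lists thus stood higher in *Sox17*-*Erg* at the later times, as did *P4ha2* and *P4ha3*, and their part in the result was not tested.

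*P4ha1* stood at 175 to 269 CPM over the 12 libraries. Control held 219 and 220 CPM at Day 3, 245 and 238 CPM at Day 7 and 265 and 247 CPM at 4 weeks. *Sox17*-*Erg* held 231 and 269, 230 and 225, and 197 and 175 CPM. *Sox17*-*Erg* was thus above control at Day 3 and below it at Day 7 and 4 weeks, without overlap. The log2 fold changes were 0.19 ± 0.11, -0.09 ± 0.11 and -0.46 ± 0.11, the last with an adjusted p of 0.019 in edgeR (1.38-fold lower). The 4-week call was lost without control 4 weeks replicate 1 (-0.41, adjusted p = 0.11), control 4 weeks replicate 2 (-0.50, adjusted p = 0.054) or *Sox17*-*Erg* 4 weeks replicate 2 (-0.40, adjusted p = 0.088). It was also lost without a filter on low counts (-0.46, adjusted p = 0.054) and in a fit of the 4 libraries of that time alone (-0.43, adjusted p = 0.090).

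The change of an effect with time was tested as the *Sox17*-*Erg* minus control difference at 4 weeks less that at Day 3. No member was called in edgeR, against 3.21% of all genes, although *P4ha1*, *P4ha3* and *Loxl2* had an unadjusted p under 0.05. The differences were -0.65 ± 0.16 for *P4ha1* (adjusted p = 0.070) and 1.33 ± 0.39 for *P4ha3* (adjusted p = 0.12), whereas *Loxl2* had an adjusted p of 0.15. With the replicate block within time points, *P4ha1* and *P4ha3* passed (adjusted p = 0.042 and 0.025), when 6.89% of all genes were called, and *Loxl2* did not (0.069). DESeq2 called all 3 genes, and edgeR without a filter on low counts called *Loxl2* and *P4ha3* (adjusted p = 0.037 and 0.0012). For the difference in effect between Day 7 and Day 3, and between 4 weeks and Day 7, no member was called in edgeR, against 0.0838% and 0.0387% of all genes. In the first, *P4ha2* (1.31 ± 0.40, adjusted p = 0.32), and in the second, *P4ha1* (-0.37 ± 0.16, adjusted p = 0.77), had an unadjusted p under 0.05.

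Within the control arm, *Loxl4*, *P4ha2* and *P4ha3* fell from Day 3 to 4 weeks, 3 of 10 members against 26.5% of all genes called in either direction (12.6% lower). The log2 changes were -1.71 ± 0.21 for *Loxl4* (adjusted p = 0.00092), -1.31 ± 0.28 for *P4ha2* (adjusted p = 0.011) and -1.95 ± 0.28 for *P4ha3* (adjusted p = 0.0019) in edgeR. *Loxl1* had a log2 change of 0.68 ± 0.27 in control (adjusted p = 0.092 in edgeR), which passed in DESeq2 (0.037), in edgeR without a filter on low counts (0.016) and with a replicate block over all libraries (0.044). The *P4ha2* call was lost without control Day 3 replicate 1 (adjusted p = 0.0505) or control 4 weeks replicate 2 (adjusted p = 0.0513). *Loxl4* (-0.99 ± 0.20, adjusted p = 0.022) and *P4ha2* (-1.41 ± 0.29, adjusted p = 0.022) had already fallen by Day 7, when 8.76% of all genes were called. From Day 7 to 4 weeks no control member was called (0.393% of all genes), although *Loxl2*, *Loxl4*, *Plod1* and *P4ha3* had an unadjusted p under 0.05. Within the *Sox17*-*Erg* arm, *Loxl2*, *Loxl4* and *P4ha1* fell, 3 of 10 against 30.7% of all genes (15.6% lower). Here the log2 changes were -1.55 ± 0.24 for *Loxl2* (adjusted p = 0.0023), -1.49 ± 0.21 for *Loxl4* (adjusted p = 0.0017) and -0.43 ± 0.11 for *P4ha1* (adjusted p = 0.022). In this arm *P4ha3* and *P4ha2* changed by -0.62 ± 0.27 and -0.58 ± 0.28 without a call, but both were called without a filter on low counts (adjusted p = 0.020 and 0.037 in edgeR). No member of this arm was called from Day 3 to Day 7 or from Day 7 to 4 weeks (3.42% and 1.82% of all genes), where 1 and 4 members had an unadjusted p under 0.05. The fall of *Loxl2* from Day 7 to 4 weeks had an adjusted p of 0.0555, and of 0.0457 with a replicate block over all libraries. The *P4ha1* call was lost in 7 of 12 fits without 1 library (adjusted p 0.052 to 0.140), namely without control Day 3 or 4 weeks replicate 2, *Sox17*-*Erg* Day 7 replicate 2 or any *Sox17*-*Erg* library of Day 3 or 4 weeks, and without a filter on low counts (adjusted p = 0.083). Beside these falls, 9 of the 10 cell cycle genes in control and 10 of 10 in *Sox17*-*Erg* were called lower from Day 3 to 4 weeks, and their part was not tested.

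Levels of different genes were compared per length, as CPM per kb of the union of exons. *Lox* made up 48.8% ± 3.4 (SD, n = 2), 39.7% ± 2.7 and 41.2% ± 3.5 of the summed lysyl oxidase level in control, in the order of time. Its *Sox17*-*Erg* shares were 45.3% ± 2.6, 54.7% ± 0.76 and 53.0% ± 3.3. *Loxl1* rose in share in the control arm, from 21.8% ± 3.0 at Day 3 to 32.0% ± 7.0 and 38.0% ± 0.17, and stood at 14.3% ± 0.75, 16.4% ± 4.7 and 24.4% ± 3.9 in *Sox17*-*Erg*. *Loxl2* held 18.2% ± 1.2 in control and 32.7% ± 4.9 in *Sox17*-*Erg* at Day 3 but 13.6% ± 2.4 and 13.0% ± 0.16 at 4 weeks. The make-up of the family thus differed between the arms, with *Loxl1* lower and, from Day 7, *Lox* higher in share in every *Sox17*-*Erg* library. The summed family level itself overlapped between the arms at Day 3 (769 and 809 against 724 and 975 CPM per kb) and 4 weeks (792 and 665 against 799 and 633), and was 735 and 799 against 955 and 926 at Day 7.

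**Figure D3:**
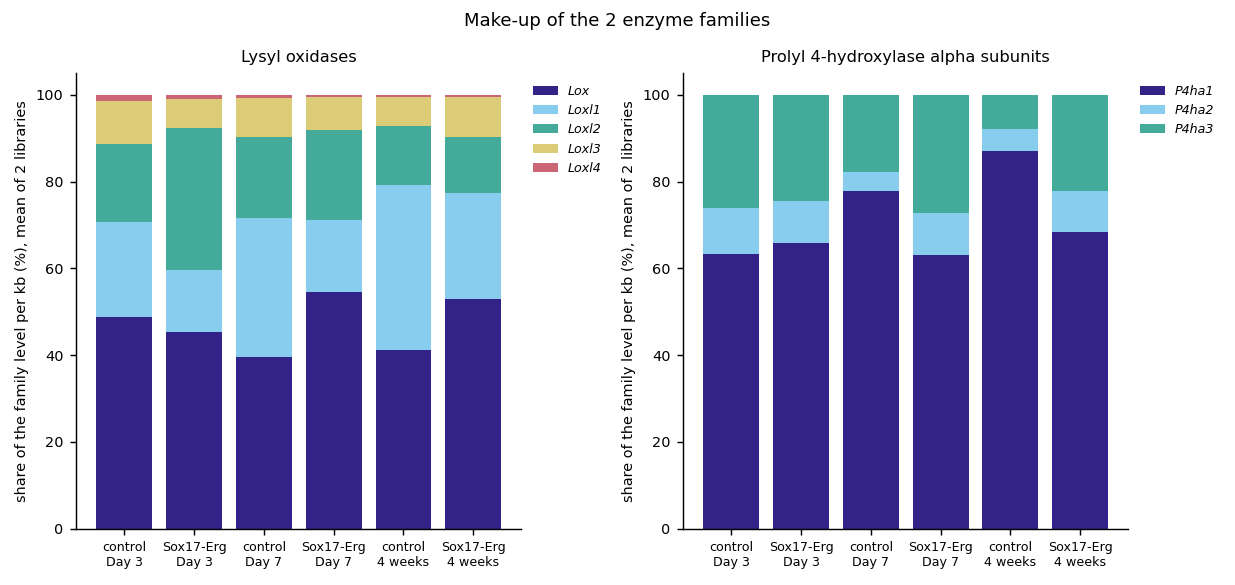
Share of each member in the summed CPM per kb of the lysyl oxidases (left) and of the prolyl 4-hydroxylase alpha subunits (right), as means of 2 libraries in the 6 groups. *Loxl1* shares are smaller in *Sox17*-*Erg* bars than in control bars, and the *P4ha3* share is 7.83% in control and 22.3% in *Sox17*-*Erg* at 4 weeks.

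In the alpha subunit family, *P4ha1* rose in share in the control arm from 63.3% ± 1.2 at Day 3 to 77.9% ± 2.1 at Day 7 and 87.2% ± 2.8 at 4 weeks, while *Sox17*-*Erg* stood at 65.7% ± 3.7, 63.0% ± 4.8 and 68.5% ± 3.2. The *P4ha3* share was 26.0% ± 1.4 against 24.4% ± 2.5 at Day 3, 17.7% ± 1.3 against 27.2% ± 5.5 at Day 7 and 7.83% ± 1.3 against 22.3% ± 2.8 at 4 weeks. *P4ha2* held 4.99% ± 1.5 in control and 9.27% ± 0.43 in *Sox17*-*Erg* at 4 weeks. The *Sox17*-*Erg* cultures thus held a subunit make-up near that of Day 3, and the ranges of the arms did not overlap at Day 7 and 4 weeks. Among the 2 lysyl hydroxylases examined, *Plod1* took 31.2% ± 4.0, 40.7% ± 5.0 and 30.2% ± 7.5 of their sum in control and 23.4% ± 3.5, 24.8% ± 1.7 and 25.7% ± 6.9 in *Sox17*-*Erg*. Shares are descriptions without a test. With the longest transcript as length, *P4ha1* shares were lower in all groups, at 81.3% in control and 59.3% in *Sox17*-*Erg* at 4 weeks. The 4-week *P4ha2* share was then 9.31% in control, near the *P4ha3* share of 9.35%, and 16.1% in *Sox17*-*Erg*, under the *P4ha3* share of 24.7%.

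The enzymes were also set against collagen I, a main substrate of these enzymes, taken as *Col1a1* plus *Col1a2* CPM per kb. In control, collagen I was 2875 and 3475 CPM per kb early, at Day 3, but 901 and 856 CPM per kb after 4 weeks. In *Sox17*-*Erg* it was 2374 and 3804 CPM per kb early and 950 and 1064 CPM per kb late. Lysyl oxidase level per 1000 of collagen I went from 268 and 233 to 878 and 777 in control and from 305 and 256 to 841 and 595 in *Sox17*-*Erg*. At 4 weeks these ratios overlapped between the arms for the lysyl oxidases, and at Day 7 they were higher in control (385 and 376) than in *Sox17*-*Erg* (299 and 318). At Day 7 it was collagen I that stood higher in *Sox17*-*Erg*, at 3189 and 2915 against 1908 and 2127 CPM per kb, and the lysyl oxidase sum given above was higher there too. The 2 lysyl hydroxylases examined, *Plod1* plus *Plod2* without *Plod3*, were at 38.9 and 36.4 per 1000 of collagen I in control at Day 7. In *Sox17*-*Erg* they were at 20.6 and 25.5. Prolyl 4-hydroxylases were at 40.9 and 34.3 in control and 29.4 and 28.2 in *Sox17*-*Erg*, likewise without overlap. At 4 weeks these ratios were again lower in *Sox17*-*Erg* without overlap. They were 63.6 and 43.2 against 77.3 and 71.1 for the 2 lysyl hydroxylases and 76.3 and 56.4 against 83.8 and 78.8 for the prolyl 4-hydroxylases. The prolyl 4-hydroxylase sum itself was higher in *Sox17*-*Erg* at Day 7, at 93.9 and 82.2 against 78.0 and 73.0 CPM per kb. At 4 weeks that sum overlapped, at 72.5 and 60.1 against 75.6 and 67.5 CPM per kb. The *Plod1* plus *Plod2* sum was lower in *Sox17*-*Erg*, at 65.6 and 74.2 against 74.3 and 77.5 at Day 7, and 60.4 and 46.0 against 69.7 and 60.9 at 4 weeks.

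Of 15 other enzymes and chaperones of collagen in the endoplasmic reticulum, none was called at Day 3 in edgeR, where 4 had an unadjusted p under 0.05. At Day 7, 1 was higher and 1 lower, and at 4 weeks 1 was higher and 3 lower, beside 17.4% and 22.9% of all genes. The medians were -0.02, 0.03 and -0.21 in the order of time. *Plod3*, the remaining lysyl hydroxylase, *P4hb*, *Serpinh1*, the collagen chaperone HSP47, and *Bmp1*, the procollagen C-proteinase, were not called at any time. The 4-week values were -0.21 ± 0.11, -0.30 ± 0.18, 0.12 ± 0.26 and 0.43 ± 0.23 (*Bmp1* adjusted p = 0.21, 0.038 with the replicate block). The lower genes at 4 weeks in edgeR were *P3h2*, a prolyl 3-hydroxylase (-1.49 ± 0.32, adjusted p = 0.0096), *Tmem38b*, a cation channel of the endoplasmic reticulum (-1.13 ± 0.22, adjusted p = 0.0062), and *Crtap*, a partner of prolyl 3-hydroxylase 1 (-0.66 ± 0.15, adjusted p = 0.012). *P3h4*, a partner of *Plod1* in lysine hydroxylation, was higher (0.56 ± 0.13, adjusted p = 0.015), the opposite direction to *Plod1*. These 4 calls were each lost without at least 1 of the 4-week libraries, at adjusted p of 0.0501 (*P3h2*, without control replicate 2), 0.0641 (*P3h2*, without *Sox17*-*Erg* replicate 2), 0.0601 (*Tmem38b*, without *Sox17*-*Erg* replicate 1), 0.0537 to 0.0896 (*Crtap*, without control replicate 1 or either *Sox17*-*Erg* replicate) and 0.0593 to 0.0896 (*P3h4*, without any of the 4).

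In procollagen processing, 7 of 8 genes were tested, of which 1 was higher and 2 lower at 4 weeks, beside 11.9% and 11% of all genes. *Pcolce* and *Pcolce2*, enhancers of the C-proteinase, went opposite ways. *Pcolce* held 871 and 688 CPM in control and 282 and 305 CPM in *Sox17*-*Erg* (-1.41 ± 0.32, adjusted p = 0.013 in edgeR). *Pcolce2* held 14.9 and 16.3 CPM against 55.9 and 53.1 CPM (1.81 ± 0.38, adjusted p = 0.0086). *Adamts3*, a procollagen N-proteinase, held 9.45 and 10.2 CPM against 0.814 and 1.52 CPM (-3.07 ± 0.45, adjusted p = 0.0014). The *Pcolce2* call was lost without control 4 weeks replicate 1 (adjusted p = 0.063), and the *Pcolce* call without that library or either *Sox17*-*Erg* 4-week library (adjusted p 0.0549 to 0.0885).

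**Figure D4:**
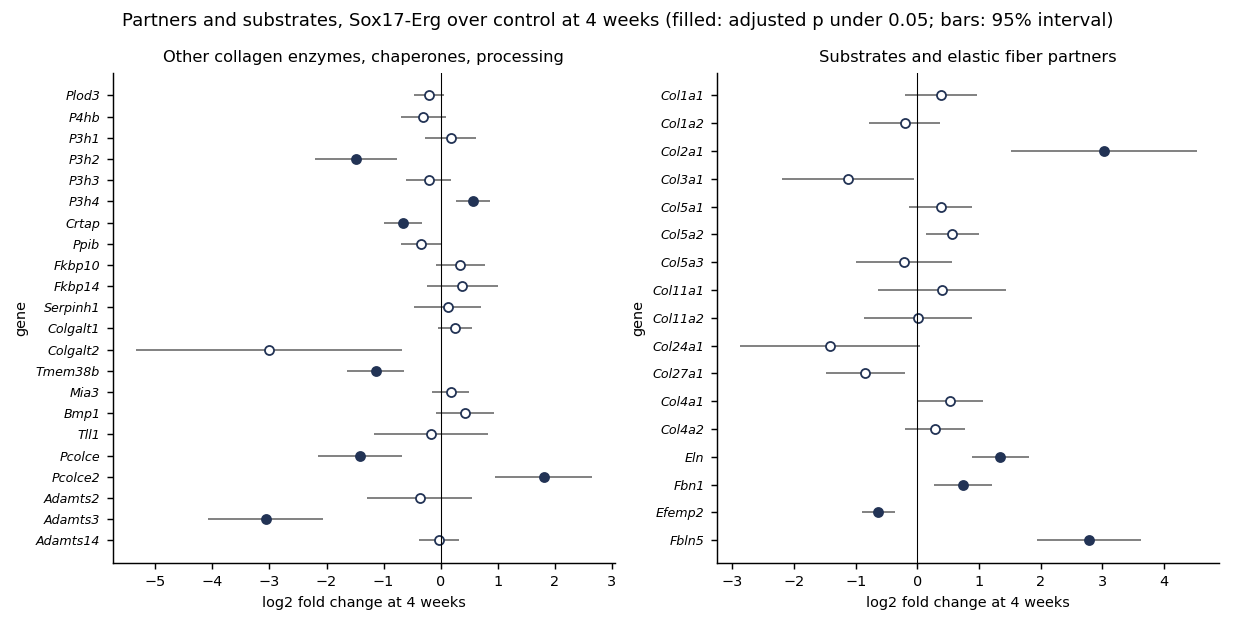
Log2 fold change of *Sox17*-*Erg* over control at 4 weeks with 95% intervals for other collagen enzymes, chaperones and processing genes (left) and for cross-linking substrates and elastic fiber partners (right). Filled points passed an adjusted p under 0.05 in edgeR, among them *Pcolce2*, *Eln*, *Fbn1* and *Fbln5* to the right of 0 and *Adamts3*, *P3h2* and *Pcolce* to the left.

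Among the substrates at 4 weeks, 1 of 11 fibrillar collagens and 4 of 6 genes of elastic fibers and basement membrane were called, beside 22.9% of all genes, and the difference between the lists was not tested. Of the fibrillar collagens, 1 was lower at Day 3, 1 lower at Day 7 and 1 higher at 4 weeks, with medians of -0.37, 0.17 and 0.01. Of all genes, 5.13%, 7.93% and 11.9% were called in these directions. *Col1a1* stood at 3722 and 3730 CPM in control and 4588 and 5096 CPM in *Sox17*-*Erg* at 4 weeks (0.38 ± 0.26, adjusted p = 0.34 in edgeR). It was not called at any time in edgeR, although the Day 7 value of 0.71 ± 0.26 had an adjusted p of 0.091, and of 0.030 with the replicate block. The called gene at 4 weeks was *Col2a1*, a cartilage collagen, at 0.727 and 0.407 CPM against 5.27 and 4.22 CPM (3.03 ± 0.67, adjusted p = 0.011), and this call was lost without control 4 weeks replicate 2 or *Sox17*-*Erg* 4 weeks replicate 1 (adjusted p = 0.0668 and 0.0559).

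*Eln*, which encodes elastin, held 399 and 325 CPM in control and 961 and 879 CPM in *Sox17*-*Erg* at 4 weeks (1.35 ± 0.21, adjusted p = 0.0019 in edgeR). *Fbln5*, which binds elastin and *Loxl1* protein, held 224 and 131 CPM against 1330 and 1113 CPM (2.78 ± 0.37, adjusted p = 0.00098), and its difference was already 2.48 ± 0.37 at Day 3. *Fbn1*, the fibrillin of microfibrils, was higher by 0.74 ± 0.21 (adjusted p = 0.031), a call lost without any 1 of the 4-week libraries (adjusted p 0.0688 to 0.158) and in the fit of these 4 libraries alone (0.77, adjusted p = 0.056). *Efemp2*, which tethers *Lox* protein to elastin, was lower (-0.63 ± 0.12, adjusted p = 0.0049). Of the 6 genes of this list, 3 were higher and 1 lower at both Day 7 and 4 weeks, with medians of 0.68 and 0.64. *Loxl1*, the lysyl oxidase of elastic fibers, was on the opposite side of 0 from *Eln* and *Fbln5* at 4 weeks. Unlike these 2 genes it was not called in edgeR (adjusted p = 0.10), and the contrast was not tested.

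Further lists touch the members' cofactors and inducers. Of 5 genes of copper and ascorbate supply, *Atp7a*, the copper pump that loads lysyl oxidases, was higher at Day 7 (0.53 ± 0.12, adjusted p = 0.014) and 4 weeks (0.39 ± 0.12, adjusted p = 0.040) in edgeR. The 4-week *Atp7a* call was lost in 9 of 12 fits without 1 library (adjusted p 0.0516 to 0.188), and was kept without control Day 3 replicate 2 or either control Day 7 library. It was also lost without a filter on low counts (0.39, adjusted p = 0.11) and in the fit of the 4 libraries of that time alone (0.42, adjusted p = 0.056). Of 12 hypoxia response genes, 2 were higher and 4 lower at 4 weeks, beside 11.9% and 11% of all genes, with a median of -0.08. Their summed level overlapped at Day 3 (1049 to 1126 CPM in *Sox17*-*Erg* against 1030 to 1235 CPM). It was lower in *Sox17*-*Erg* without overlap at Day 7 (932 to 982 CPM against 1096 to 1097 CPM). The same held at 4 weeks (821 to 882 CPM against 1130 to 1208 CPM), and the part of this list in the members' results was not tested. *Vegfa* rose to 158 and 99.6 CPM against 38.4 and 45.3 CPM in control (1.62 ± 0.21, adjusted p = 0.00081), and *Adm*, which encodes adrenomedullin, was lower (-1.78 ± 0.41, adjusted p = 0.013). *Ankrd37* was called higher on 15 and 14 counts against 1 count in each control library at 4 weeks, and 6 of 12 fits without 1 library, and DESeq2 (adjusted p = 0.057), lost that call. The list thus had members in both directions, and its *Adm* call was lost without control 4 weeks replicate 1 or either *Sox17*-*Erg* 4-week library (adjusted p 0.0617 to 0.0766).

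Day 7 had 6 higher and 1 lower of 10 TGFβ response genes (median 1.07), beside 9.48% and 7.93% of all genes. At 4 weeks 3 were higher and none lower (median 0.71), beside 11.9% and 11% of all genes. *Postn*, which encodes the matrix protein periostin, stood at 60.4 and 47.5 CPM in control and 1542 and 1346 CPM in *Sox17*-*Erg* at 4 weeks (4.74 ± 0.30, adjusted p = 1.9e-05 in edgeR). *Skil* and *Smad7*, inhibitors induced by the pathway, were higher by 1.02 ± 0.14 and 0.64 ± 0.15 (adjusted p = 0.0013 and 0.015), the *Smad7* call being lost without either control 4-week library or *Sox17*-*Erg* 4 weeks replicate 1 (adjusted p 0.0595 to 0.114). Over the 66 genes of these 7 lists, 12 were higher and 10 lower at 4 weeks, against 11.9% and 11% of all genes. These counts fell to 6 and 4 without replicate 1 of either 4-week arm, and to 8 and 3 without *Sox17*-*Erg* 4 weeks replicate 2.

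The genes whose log2 CPM was most like that of a member over the 12 libraries, which share arms and time points, were listed as a description. For *Loxl1* they were *Lrp1* (Pearson's r = 0.987), *Dpep1* (0.985) and *Slfn5* (0.982). For *Plod1* they were *Unc93b1* (0.971), *Grn* (0.968) and *Lipa* (0.964), and for *P4ha3* *Zdhhc20* (0.970), *Rbfox2* (0.959) and *Olfml2b* (0.955). *Loxl4* was nearest *Bco1* (0.960), *Loxl2* nearest *Aaas* (0.952), *P4ha2* nearest *Psmd8* (0.941) and *P4ha1* nearest *Zfp410* (0.932). The nearest genes of *Loxl3*, *Lox* and *Plod2* were *B3glct* (0.897), *Dvl3* (0.875) and *Rhof* (0.841). Between members, the highest values were 0.838 for *P4ha2* with *P4ha3* and 0.803 for *Lox* with *P4ha2*, and *Loxl1* with *Plod1* gave 0.661.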

How the data were processed

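Bulk RNAseq was performed on 12 libraries, 2 for each of 6 groups. The authors isolated RNA with TRIzol, prepared Kapa stranded mRNA libraries, trimmed high GC content with BBDuk, and quantified reads with Salmon. They deposited estimated counts per gene, already whole numbers, that are not scaled for depth. Per the labels' processing notes, bcl2fastq 2.20.0, Salmon and DESeq2 were used with genome mm10, and the Salmon version, annotation and strand setting are not given in the sources used here.

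Samples were grouped by their labels. Members and gene lists were chosen with earlier results of these data known. Symbols, lengths and overlaps came from GENCODE M21 for GRCm38, which named 35422 of 35727 genes, and promoters from RefSeq. No protein sequence was used.

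The fit used the quasi-likelihood test of edgeR 4.0.16 under R 4.3.3, with TMM factors and a mean for each group, which left 6 residual degrees of freedom. filterByExpr had its minimum count at 10 and its minimum total at 15. Called genes had a Benjamini-Hochberg adjusted p under 0.05 over 15506 genes. Errors beside log2 values are standard errors of the fit. Log2 CPM used a prior count of 2. The smallest two-sided p of 2 libraries against 2 is 0.33, so single genes were permuted within time points, freely or, as an added alternative, by swaps within same-numbered pairs. Replicates 1 and 2 are the numbers of the sample titles. The columns of the count table carry R2 and R3 instead, and were matched to the titles through the sample descriptions, which hold the column names. Deviations from group means of same-numbered *Sox17*-*Erg* and control libraries correlated at 0.186, 0.301 and 0.171 across genes at Day 3, Day 7 and 4 weeks, all above 0.1, so numbers were taken to pair arms within a time point. Between time points of 1 arm the correlations ran from -0.110 to 0.219, so some were as large as those within a time point. The block within time points left 3 residual degrees of freedom. DESeq2 1.42.0, other scaling, filters, blocks, thresholds and leaving out each library were tried. Scripts were tested on simulated counts. Named genes were the members, the transgenes, *Plod3*, *P4hb*, *Serpinh1*, *Bmp1* and *Col1a1*, up to 3 called genes of largest change at 4 weeks per list, and the 3 genes of highest correlation with each member, of which some are given. *P3h4*, *Efemp2*, *Cdh5* at earlier times and *Gm21451* and *Htra2* were added after their values were seen. Between library totals of 19011635 and 41240449 counts, the lowest count of a member in any library was 253, for *Loxl4*.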

Additional observations from a re-analysis of the deposited data

Results flagged for a closer look

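These genes had an effect of *Sox17*-*Erg* that differed between 4 weeks and Day 3 by the interaction term of edgeR, and were named by their 4-week change. The effect on *Postn* was larger at 4 weeks by 4.40 on the log2 scale (adjusted p = 0.0013), from 0.35 at Day 3 to 4.74. For the pericyte marker *Cspg4* it was larger by 3.36 (adjusted p = 0.011), and for *Notch3*, a receptor of mural cells, by 1.98 (adjusted p = 0.022). For *Vegfa* it was larger by 1.34 (adjusted p = 0.044). No member of the enzyme families was called in this test in the main edgeR fit. The replicate block within time points called *P4ha1* and *P4ha3* (adjusted p = 0.042 and 0.025). The fit without a filter on low counts called *Loxl2* and *P4ha3* (adjusted p = 0.037 and 0.0012).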

How the results depend on the processing

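Of the members' called values, none changed direction under any alternative run. Leaving out 1 library in turn ended 33 of their calls and kept 111, and the other alternatives ended 5 and kept 55. Main counts were 1 higher and 1 lower member at each time point. DESeq2 called 2 lower at Day 3, 3 higher and 2 lower at Day 7, 2 higher at 4 weeks, 1 higher and 2 lower for the difference in effect between 4 weeks and Day 3, and 1 higher for the change over time in control. Without a filter on low counts there were 2 lower at Day 3, 3 higher and 2 lower at Day 7, 2 higher and 2 lower at 4 weeks, 1 higher and 1 lower for the difference in effect, and 1 higher in control over time. The 2 lower at 4 weeks without a filter were *Loxl1* and *Plod1*, whereas *P4ha1* lost its call, as it did over time in *Sox17*-*Erg*. Over time, this setting also called falls of *Loxl3* in control and of *P4ha2* and *P4ha3* in *Sox17*-*Erg*. Fits of the 4 libraries of a time point alone gave 0 lower at each time. A replicate block over all libraries gave 2 higher at Day 7, 2 lower at 4 weeks and 1 higher in control over time (*Loxl1*, as in the other settings that gave 1), and called the fall of *Loxl2* from Day 7 to 4 weeks in *Sox17*-*Erg*. The replicate block within time points gave 3 lower at Day 3, 3 higher and 2 lower at Day 7, 2 higher and 3 lower at 4 weeks, and 1 higher and 1 lower for the difference in effect, for which it was chosen after seeing the data. It changed no other call of a member. At an adjusted p under 0.01 there were 0 higher and 0 lower at Day 3 and Day 7 and 0 lower at 4 weeks. With a log2 fold change of at least 1 there were 0 higher at Day 3 and 0 lower at each time. The causes were not tested, except that stricter thresholds call fewer genes by construction.

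Leaving out each library in turn gave 0 to 1 higher and 0 to 2 lower at Day 3, 0 to 3 higher and 0 to 1 lower at Day 7, and 0 to 2 higher and 0 to 1 lower at 4 weeks. The 66 genes of the other lists, an alternative set chosen after seeing the data, had 12 higher and 10 lower at 4 weeks, 19 higher with the block within time points, 16 lower without a filter, 6 higher and 4 lower at an adjusted p under 0.01, and 6 to 12 higher and 3 to 11 lower without 1 library.

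Values that reversed were not called. *Lox* at Day 3 was -0.0083 in DESeq2, -0.011 with its size factors, -0.022 in the fit of 4 libraries and -0.016 with the block within time points, and -0.29 to 0.22 without 1 library. Over time in *Sox17*-*Erg*, *Lox* was 0.014 in DESeq2, 0.013 with its size factors and -0.23 to 0.28 without 1 library, and *Plod1* was 0.020, 0.019, 0.0079 with the block over all libraries, and -0.23 to 0.31. Without 1 library, *Loxl3* (-0.14 to 0.70) and *Plod2* (-0.40 to 0.14) also crossed 0 in this arm, and *Plod2* in control (-0.37 to 0.049). The same held at Day 3 for *P4ha2* (-0.28 to 0.25) and *P4ha3* (-0.23 to 0.27), at Day 7 for *Loxl3* (-0.19 to 0.24), and at 4 weeks for *Loxl2* (-0.27 to 0.073), *Plod2* (-0.53 to 0.035) and *Serpinh1* (-0.080 to 0.37). For the difference in effect it held for *Loxl1* (-0.39 to 0.11), *Loxl4* (-0.055 to 0.49), *Plod1* (-0.0031 to 0.55) and *Plod2* (-0.26 to 0.28).

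With the longest transcript as length, the *P4ha1* share was 53.7%, 71.1% and 81.3% in control and 56.4%, 53.7% and 59.3% in *Sox17*-*Erg*, and the *Plod2* share in *Sox17*-*Erg* at Day 7 was 73.0%. The permutation test with a prior count of 0.5, chosen after seeing the data, gave the same p to the members that passed. Swaps within same-numbered pairs, also chosen after seeing the data, left 0 members past an adjusted p under 0.05. Their smallest p of 0.031, held by 40.6% of all genes, let no gene of the table pass, so this count says nothing particular to the members. No alternative varied the depth.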
